A study of Homo sapiens with 20 samples.

Results

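The 9 genes described here belong to MHC class I antigen presentation: the heavy chains HLA-B, HLA-C, HLA-E and HLA-F, the light chain B2M, the peptide transporter subunits TAP1 and TAP2, the loading chaperone TAPBP (tapasin) and the transactivator NLRC5. They were taken by symbol from the 57820 gene models of the count files, where each matched 1 Ensembl gene, and all 9 passed the filter on low counts that left 18806 genes to test. The RNA-seq libraries come from T47D, a long-established line of human luminal breast cancer cells that carries progesterone and oestrogen receptors. Cells carried a small interfering RNA against BRG1 (si-BRG1; BRG1 is the product of SMARCA4 and the motor of the SWI/SNF remodelling complex), CBX3 (si-CBX3; HP1 gamma, a protein of repressive chromatin), FOXA1 (si-FOXA1; a pioneer transcription factor) or a control sequence (si-control), and were taken after 6 h or 0 h of the synthetic progestin R5020 at 10 nM. Each of the 8 groups had 2 libraries. Cells were starved of steroids and then of serum before hormone, per the labels' protocols, which are not given for the first si-CBX3 0 h library. Cells without siRNA gave 1 RNA-seq library at 6 h and 1 at 0 h of R5020, and BRG1 ChIP-seq gave 1 peak list at 30 min and 1 at 0 min. All values come from this 1 cell line, and since no label tells whether replicates were cultured separately, the p-values reflect no more than the spread of these samples, which may be technical.

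MHC class I molecules sit on the surface of nearly all nucleated cells and show peptides of the cell's own proteins to cytotoxic T cells and natural killer cells. Proteasomes cut proteins into peptides, the TAP1-TAP2 transporter pumps them into the endoplasmic reticulum, tapasin holds empty heavy chains at the transporter until a peptide is bound, and the heavy chain leaves for the surface with B2M. Interferons raise most of these genes, and NLRC5 works with the RFX, CREB/ATF and NF-Y factors at a shared promoter module of the heavy chains and B2M. Tumour cells, those of the breast included, often carry less of this machinery than their tissue of origin.

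Per kilobase of gene model, the 9 genes covered a wide range. Over the 16 siRNA libraries the median level was 209.9 FPKM for HLA-B, 169 FPKM for B2M, 100.0 FPKM for HLA-C and 76.3 FPKM for HLA-E. TAPBP (27.7 FPKM) and TAP1 (26.9 FPKM) followed, then HLA-F at 3.47 FPKM, TAP2 at 2.16 FPKM and NLRC5 at 0.569 FPKM. Neighbours in this order had overlapping ranges over the libraries, such as 171 to 294 FPKM for HLA-B and 122 to 285 FPKM for B2M, except at 3 steps. These were B2M above HLA-C (77.9 to 118 FPKM), TAP1 (16.9 to 39.0 FPKM) above HLA-F (2.20 to 6.66 FPKM), and TAP2 (1.57 to 2.95 FPKM) above NLRC5 (0.274 to 1.05 FPKM). Counts behind these levels ran between 195 fragments (NLRC5) and 57157 fragments (B2M) per library. Heavy-chain genes are close paralogs and highly polymorphic, and the counting command in the file headers has no option that keeps reads mapping to several places, so the levels of HLA-B, HLA-C, HLA-E and HLA-F are uncertain in absolute terms. TAP2 shares 2064 of its 6385 exonic bases (32.3%) with an overlapping gene model on its own strand, while the other 8 share none.

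The promoters are shown because TAPBP was called higher, and never lower, in knockdown against si-control cells. Each of the other genes was more often called lower than higher there. RefSeq promoter entries (GRCh38.p14) matched 7 of the 9 genes, HLA-E and NLRC5 not being among them. Both strands of the 250 bases before each start were searched for the short interferon-response core GAANNGAAA, its long form (GAAA, any 2 bases, GAAA), the CCAAT box bound by NF-Y, the CRE core TGACG bound by CREB/ATF, and the NF-kappaB consensus. The long form was added after the sequences had been seen. Capitals below mark matches to any of these, and overlapping matches run together; each sequence reads 5′ to 3′ in the gene's direction and ends at the base before the start. The windows are chr6:31357180-31357429 for HLA-B, chr6:31272093-31272342 for HLA-C, chr6:32853705-32853954 for TAP1 and chr6:33314079-33314328 for TAPBP on the minus strand, and chr6:29723184-29723433 for HLA-F and chr15:44711267-44711516 for B2M on the plus strand.
HLA-B: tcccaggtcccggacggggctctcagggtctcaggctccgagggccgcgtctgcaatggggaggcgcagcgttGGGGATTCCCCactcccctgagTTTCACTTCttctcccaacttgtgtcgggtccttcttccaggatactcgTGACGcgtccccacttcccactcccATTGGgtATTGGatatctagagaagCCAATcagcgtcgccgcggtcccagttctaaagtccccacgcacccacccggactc
HLA-C: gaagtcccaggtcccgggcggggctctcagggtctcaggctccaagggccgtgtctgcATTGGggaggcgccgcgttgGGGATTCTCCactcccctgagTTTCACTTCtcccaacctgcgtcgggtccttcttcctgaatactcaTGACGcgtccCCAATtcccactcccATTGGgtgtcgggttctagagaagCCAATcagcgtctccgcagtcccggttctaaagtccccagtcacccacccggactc
HLA-F: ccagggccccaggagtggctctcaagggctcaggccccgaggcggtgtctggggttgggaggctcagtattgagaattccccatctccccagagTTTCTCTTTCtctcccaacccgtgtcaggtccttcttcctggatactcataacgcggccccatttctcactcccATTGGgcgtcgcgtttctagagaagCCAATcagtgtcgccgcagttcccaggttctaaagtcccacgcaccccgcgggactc
B2M: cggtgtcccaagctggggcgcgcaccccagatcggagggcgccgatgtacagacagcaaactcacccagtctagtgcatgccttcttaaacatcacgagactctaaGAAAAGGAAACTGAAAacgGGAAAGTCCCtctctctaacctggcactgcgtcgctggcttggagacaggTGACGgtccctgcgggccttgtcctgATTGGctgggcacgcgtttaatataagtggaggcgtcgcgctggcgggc
TAP1: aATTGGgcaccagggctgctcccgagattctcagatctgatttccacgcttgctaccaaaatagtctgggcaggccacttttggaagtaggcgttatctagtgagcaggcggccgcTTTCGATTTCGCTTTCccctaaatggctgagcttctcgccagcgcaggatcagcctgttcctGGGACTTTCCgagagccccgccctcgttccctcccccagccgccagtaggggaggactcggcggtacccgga
TAPBP: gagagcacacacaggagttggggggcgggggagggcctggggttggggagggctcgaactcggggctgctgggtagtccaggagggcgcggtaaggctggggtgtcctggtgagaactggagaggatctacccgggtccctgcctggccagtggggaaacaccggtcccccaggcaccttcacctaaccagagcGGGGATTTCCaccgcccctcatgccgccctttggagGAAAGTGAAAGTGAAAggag
An interferon-response core of either form lay in 7 of the 7 promoters, against 9.08% of the 35116 RefSeq promoters searched in windows of that length. HLA-B, HLA-C and TAP2 held the short form, which was in 6.56% of all promoters. HLA-F, B2M, TAP1, TAP2 and TAPBP held the long form, which was in 3.02%. In HLA-B, HLA-C and HLA-F the core stood between positions -156 and -143, where -1 is the base before the start. HLA-B and HLA-C had the order kappaB, interferon core, CRE and CCAAT known of class I heavy chains, HLA-C with 1 more CCAAT before them, and HLA-F had the core and CCAAT but no match to the kappaB and CRE letters. CCAAT boxes were in 5 of 7 promoters (32.0% of all), TGACG in 4 of 7 (21.2%) and the kappaB consensus in 5 of 7 (9.96%). The forkhead motif TGTTTAC, which FOXA1 binds, was in 0 of 7 (2.98% of all), and the steroid receptor core TGTTCT in 0 of 7 (12.4%). The gamma-activated site TTCNNNGAA was in 1 of 7, at the other start of TAP1 and so not in the sequence shown (6.57% of all). TAPBP carried the interferon core, with 2 overlapping matches between positions -20 and -5, as did the other genes with a promoter entry. It matched only the long form, which was added after the sequences had been seen. Whether any of these motifs has a part in the RNA changes was not tested.

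Library totals ran between 50017255 and 74374857 fragments. The targeted genes were low where they should be: SMARCA4 averaged 3.96 ± 2.40 CPM at 6 h and 5.44 ± 0.65 CPM at 0 h in si-BRG1 cells against 62.4 ± 0.90 and 71.1 ± 7.69 CPM in si-control cells, CBX3 3.41 ± 0.47 and 6.59 ± 0.30 CPM in si-CBX3 cells against 262 ± 5.09 and 254 ± 17.4 CPM, and FOXA1 45.1 ± 0.95 and 62.1 ± 0.98 CPM in si-FOXA1 cells against 183 ± 23.5 and 399 ± 13.4 CPM (SD, n = 2 each). CPM here are fragments per 1000000 scaled by TMM. SMARCA4 was itself higher in si-CBX3 (119 ± 3.04 and 179.8 ± 6.65 CPM) and si-FOXA1 cells (150.2 ± 5.80 and 185 ± 2.90 CPM). Per the file headers, fragments were counted with 1 thread in the si-CBX3 and si-FOXA1 sets but with 8 in the si-BRG1 and si-control sets, so a difference of si-CBX3 or si-FOXA1 from si-control cannot be told apart from one between those sets. The first si-control 0 h library stood apart from its replicate: the median of 36 interferon-stimulated genes was 96.7 CPM in it and 46.8 CPM in the second. Summed leukocyte markers (10 genes, NKG7 at 0 in all libraries and CD3E in all but 1) lay between 0.765 and 2.04 CPM and summed luminal markers between 7628 and 13230.0 CPM. The leukocyte sum was 1.35 to 2.04 CPM in si-CBX3 and si-FOXA1 libraries and 0.765 to 0.896 CPM in si-BRG1 libraries, against 1.005 to 1.21 CPM in si-control libraries. Summed fibroblast markers (6 genes, 3 of them tested) were lower in si-FOXA1 cells, at 22.2 and 25.5 CPM at 6 h and 32.2 and 34.1 CPM at 0 h, against 41.1 and 43.3 CPM and 40.0 and 45.3 CPM in si-control cells, with 3 of 3 called lower at each time. The fibroblast sum in si-BRG1 cells at 0 h was 58.2 and 60.5 CPM, with 1 gene called higher and 1 lower. Summed endothelial markers (4 genes, 2 tested) stayed below 1 CPM in all libraries, with 0.399 to 0.989 CPM in si-FOXA1 libraries against 0.0378 to 0.239 CPM in si-control libraries, and CDH5 among them was called higher in si-FOXA1 cells at both times and in si-CBX3 cells at 6 h. The part of these markers in the class I values was not tested.

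Relative to si-control cells, RNA of most class I genes was lower with BRG1 or FOXA1 knockdown, and RNA of some with CBX3 knockdown. Which side departs from cells without siRNA was not tested. TAPBP was higher in si-CBX3 and si-FOXA1 cells at both times and in si-BRG1 cells at 0 h. Against si-control at 6 h, 8 of the 9 genes were called lower and 0 higher in si-BRG1 cells, where 37.3% of all genes tested were called, 17.8% lower and 19.6% higher. In si-CBX3 cells at 6 h, 3 were lower and 2 higher (49.2% of all genes called, 24.4% lower and 24.7% higher), and in si-FOXA1 cells 7 were lower and 1 higher (74.6% called, 34.5% lower and 40.1% higher). At 0 h, 6 were lower and 1 higher in si-BRG1 cells (28.5% called, 13.4% lower and 15.1% higher). In si-CBX3 cells at 0 h, 5 were lower and 2 higher (54.1% called, 26.0% lower and 28.1% higher), and in si-FOXA1 cells 7 were lower and 1 higher (73.5% called, 33.5% lower and 40.0% higher). A call is a Benjamini-Hochberg adjusted p below 0.05 in edgeR's quasi-likelihood test. B2M, HLA-F and TAP2 were lower in all 6 of these comparisons, which share the si-control libraries, TAP1 in 5 and HLA-E in 4. In si-CBX3 and si-FOXA1 cells a call in itself was therefore common. The si-CBX3 6 h total of 5 was 8 with only those groups fitted, where HLA-E (-0.15), TAP1 (-0.22) and NLRC5 (-0.36) were called lower as well, and the si-FOXA1 0 h total of 8 was 5 with upper-quartile scaling. The si-BRG1 0 h total of 7 called genes was 3 without si-BRG1 replicate 1, 4 without si-BRG1 replicate 2 and 4 without si-control replicate 1, and the si-FOXA1 0 h total of 8 was 5 without either si-FOXA1 library or si-control replicate 1. The median log2 fold change of the 9 genes was -0.48, -0.22 and -0.52 at 6 h and -0.38, -0.39 and -0.39 at 0 h in si-BRG1, si-CBX3 and si-FOXA1 cells, against 0.04, 0.02 and 0.12 and 0.03, 0.05 and 0.11 over all genes tested. In bulk RNA, fewer cells that express a gene and less RNA per cell cannot be told apart.

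**Figure D1:**
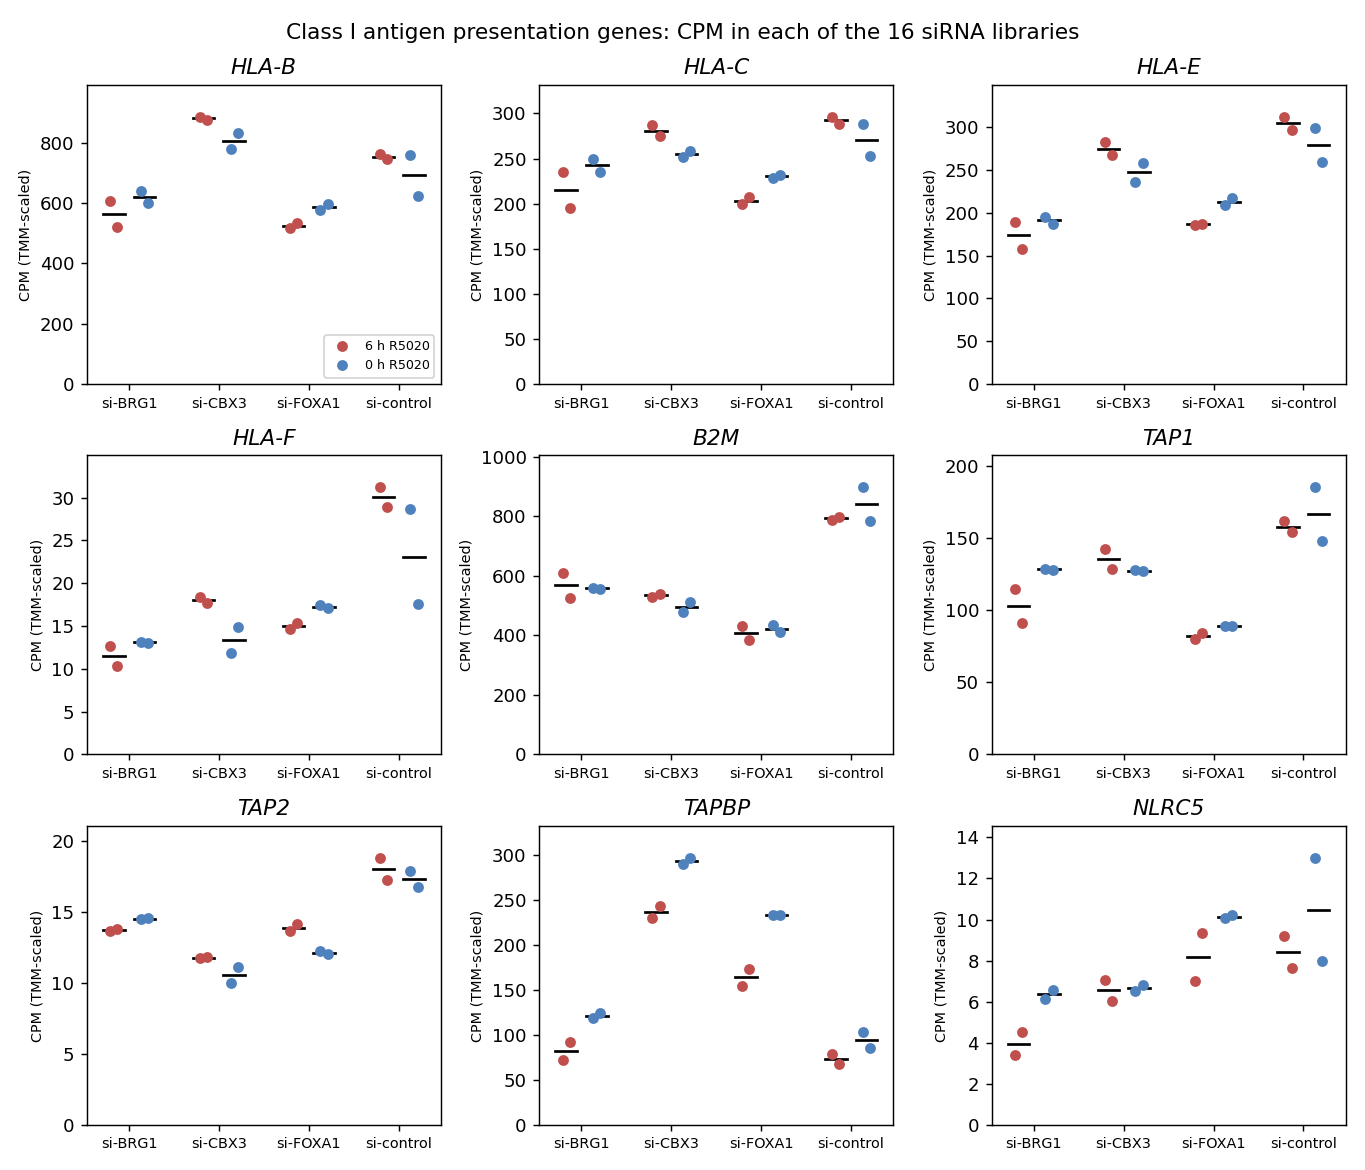
CPM (TMM-scaled, vertical axis from 0) of each of the 9 genes in the 16 siRNA libraries, with the siRNA on the horizontal axis, 6 h of R5020 in red and 0 h in blue; points are libraries and bars are means of 2. B2M is highest in all 4 si-control libraries (783 CPM and above), whereas TAPBP is highest in si-CBX3 and si-FOXA1 libraries (155 to 297 CPM).

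B2M encodes beta-2 microglobulin, the invariant light chain that every class I molecule needs to fold. At 6 h it had 609 and 526 CPM in si-BRG1 cells, 530.0 and 538 CPM in si-CBX3 cells and 430.1 and 385 CPM in si-FOXA1 cells, against 789 and 797 CPM in si-control cells. At 0 h it had 560.0 and 556 CPM in si-BRG1 cells, 478 and 511 CPM in si-CBX3 cells and 433 and 409.9 CPM in si-FOXA1 cells, against 896 and 783 CPM in si-control cells. All 12 knockdown libraries were below all 4 si-control libraries, and the si-FOXA1 libraries were the lowest. The log2 fold changes at 6 h were -0.48 ± 0.08 in si-BRG1 cells (edgeR adjusted p = 0.000259), -0.57 ± 0.08 in si-CBX3 cells (adjusted p = 2.46e-05) and -0.96 ± 0.08 in si-FOXA1 cells (adjusted p = 1.78e-08). Those at 0 h were -0.59 ± 0.08 in si-BRG1 cells (edgeR adjusted p = 6.23e-05), -0.76 ± 0.08 in si-CBX3 cells (adjusted p = 8.3e-07) and -0.99 ± 0.08 in si-FOXA1 cells (adjusted p = 1.32e-08). In si-FOXA1 cells the difference amounted to 1.94-fold at 6 h and 1.99-fold at 0 h. These 6 calls held without any single library, with log2 fold changes from -1.13 to -0.38.

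HLA-B and HLA-C are classical heavy chains, which present peptides to T cells. At 6 h HLA-B had 607 and 519 CPM in si-BRG1 cells, 886 and 876 CPM in si-CBX3 cells and 516 and 533 CPM in si-FOXA1 cells, against 762 and 747 CPM in si-control cells. At 0 h it had 639.5 and 599 CPM in si-BRG1 cells, 779.6 and 833 CPM in si-CBX3 cells and 578 and 596 CPM in si-FOXA1 cells, against 760.0 and 625 CPM in si-control cells. HLA-B was lowest in si-FOXA1 and si-BRG1 cells at 6 h and highest in si-CBX3 cells at both times. Its log2 fold changes were -0.42 ± 0.09 in si-BRG1 cells (edgeR adjusted p = 0.00128), 0.22 ± 0.09 in si-CBX3 cells (adjusted p = 0.0439) and -0.52 ± 0.09 in si-FOXA1 cells (adjusted p = 4.39e-05) at 6 h. At 0 h they were -0.16 ± 0.09 in si-BRG1 cells (edgeR adjusted p = 0.19), 0.22 ± 0.09 in si-CBX3 cells (adjusted p = 0.044) and -0.24 ± 0.09 in si-FOXA1 cells (adjusted p = 0.0221). The small rise in si-CBX3 cells was not called with DESeq2 (0.19 at 6 h and 0.175 at 0 h) or upper-quartile scaling (0.21 and 0.20). It was lost at 6 h without any of the 4 libraries compared (log2 0.21 to 0.24) and at 0 h without either si-CBX3 library (0.27 without replicate 1, 0.17 without replicate 2) or si-control replicate 2 (0.06), and was 0.37 without si-control replicate 1. The si-FOXA1 0 h fall was lost without either si-FOXA1 library (-0.22 without replicate 1, -0.26 without replicate 2) or si-control replicate 1 (-0.09), was -0.41 without si-control replicate 2, and was -0.15 and not called with upper-quartile scaling. Without si-control 0 h replicate 2, HLA-B was also called lower in si-BRG1 cells at 0 h (log2 -0.30).

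HLA-C, at 6 h, had 235 and 195 CPM in si-BRG1 cells, 287 and 275 CPM in si-CBX3 cells and 199 and 207 CPM in si-FOXA1 cells, against 296 and 289 CPM in si-control cells. At 0 h HLA-C had 249.7 and 235 CPM in si-BRG1 cells, 252 and 258 CPM in si-CBX3 cells and 229 and 232 CPM in si-FOXA1 cells, against 289 and 253 CPM in si-control cells. It was lower in si-FOXA1 and si-BRG1 cells at 6 h, with every library of both below every si-control library, while the si-CBX3 libraries lay just below the si-control libraries. The log2 fold changes were -0.44 ± 0.08 in si-BRG1 cells (edgeR adjusted p = 0.000549), -0.06 ± 0.08 in si-CBX3 cells (adjusted p = 0.594) and -0.52 ± 0.08 in si-FOXA1 cells (adjusted p = 2.36e-05) at 6 h. At 0 h they were -0.16 ± 0.08 in si-BRG1 cells (edgeR adjusted p = 0.162), -0.09 ± 0.08 in si-CBX3 cells (adjusted p = 0.393) and -0.24 ± 0.08 in si-FOXA1 cells (adjusted p = 0.017). The si-FOXA1 0 h call did not hold without either si-FOXA1 library (-0.23 without replicate 1, -0.25 without replicate 2) or si-control replicate 1 (-0.14), nor with upper-quartile scaling (-0.15), and was -0.36 without si-control replicate 2.

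HLA-E and HLA-F are non-classical heavy chains; HLA-E presents mainly signal peptides of other class I molecules to natural killer cell receptors. At 6 h HLA-E had 189 and 158 CPM in si-BRG1 cells, 283 and 268 CPM in si-CBX3 cells and 186 and 187 CPM in si-FOXA1 cells, against 312 and 297 CPM in si-control cells. At 0 h HLA-E stood at 195 and 187 CPM in si-BRG1 cells, 237 and 258 CPM in si-CBX3 cells and 209 and 217 CPM in si-FOXA1 cells, against 299.7 and 259.8 CPM in si-control cells. The si-BRG1 and si-FOXA1 libraries lay below every si-control library, and the si-CBX3 libraries lay between them at each time. HLA-E fell by 0.81 on the log2 scale in si-BRG1 cells at 6 h (SE 0.09, edgeR adjusted p = 3.22e-06) and by 0.71 in si-FOXA1 cells (SE 0.09, adjusted p = 1.15e-06). At 0 h its log2 fold changes were -0.55 ± 0.09 in si-BRG1 cells (edgeR adjusted p = 0.000178), -0.18 ± 0.09 in si-CBX3 cells (adjusted p = 0.0916) and -0.39 ± 0.09 in si-FOXA1 cells (adjusted p = 0.000605). Without si-control 0 h replicate 2, HLA-E was also called lower in si-CBX3 cells at 0 h (log2 -0.31).

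HLA-F was the most reduced of the heavy chains. At 6 h it had 12.6 and 10.3 CPM in si-BRG1 cells, 18.3 and 17.7 CPM in si-CBX3 cells and 14.7 and 15.4 CPM in si-FOXA1 cells, against 31.2 and 28.9 CPM in si-control cells. At 0 h HLA-F had 13.2 and 13.0 CPM in si-BRG1 cells, 11.8 and 14.9 CPM in si-CBX3 cells and 17.4 and 17.1 CPM in si-FOXA1 cells, against 28.7 and 17.6 CPM in si-control cells. At each time all knockdown libraries were below both si-control libraries, the second si-control 0 h library being the one near the knockdowns. The log2 fold changes at 6 h were -1.39 ± 0.17 in si-BRG1 cells (edgeR adjusted p = 9.63e-06), -0.74 ± 0.16 in si-CBX3 cells (adjusted p = 0.00126) and -0.999 ± 0.16 in si-FOXA1 cells (adjusted p = 3.53e-05), a 2.63-fold difference in si-BRG1 cells. Those at 0 h were -0.82 ± 0.16 in si-BRG1 cells (edgeR adjusted p = 0.00132), -0.79 ± 0.16 in si-CBX3 cells (adjusted p = 0.000621) and -0.42 ± 0.16 in si-FOXA1 cells (adjusted p = 0.0273). Leaving out si-control 0 h replicate 1 reduced the 0 h values to -0.42 in si-BRG1, -0.39 in si-CBX3 and -0.02 in si-FOXA1 cells, the last no longer called. The si-FOXA1 0 h call was also lost without either si-FOXA1 library (-0.44 without replicate 1, -0.41 without replicate 2) and with upper-quartile scaling (-0.33), and was -0.77 without si-control replicate 2.

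TAP1 and TAP2 form the transporter that brings cytosolic peptides to the class I molecule. At 6 h TAP1 had 114 and 91.0 CPM in si-BRG1 cells, 143 and 128 CPM in si-CBX3 cells and 80.2 and 84.2 CPM in si-FOXA1 cells, against 162 and 154 CPM in si-control cells. At 0 h TAP1 had 128 and 128 CPM in si-BRG1 cells, 127 and 127 CPM in si-CBX3 cells and 89.3 and 89.2 CPM in si-FOXA1 cells, against 185 and 148 CPM in si-control cells. The 4 si-FOXA1 libraries were the lowest, at 80.2 to 89.3 CPM. Log2 fold changes at 6 h were -0.62 ± 0.10 in si-BRG1 cells (edgeR adjusted p = 0.000202), -0.22 ± 0.10 in si-CBX3 cells (adjusted p = 0.0871) and -0.94 ± 0.10 in si-FOXA1 cells (adjusted p = 3.68e-07). At 0 h they were -0.38 ± 0.10 in si-BRG1 cells (edgeR adjusted p = 0.0117), -0.39 ± 0.10 in si-CBX3 cells (adjusted p = 0.00436) and -0.90 ± 0.10 in si-FOXA1 cells (adjusted p = 6.93e-07). The calls in si-FOXA1 cells held without any single library, but at 0 h TAP1 was not called in si-BRG1 cells without si-BRG1 replicate 1 (-0.38), si-BRG1 replicate 2 (-0.37) or si-control replicate 1 (-0.20), nor in si-CBX3 cells without si-control replicate 1 (-0.21).

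TAP2, at 6 h, had 13.7 and 13.8 CPM in si-BRG1 cells, 11.8 and 11.8 CPM in si-CBX3 cells and 13.7 and 14.2 CPM in si-FOXA1 cells, against 18.8 and 17.3 CPM in si-control cells. At 0 h TAP2 had 14.5 and 14.6 CPM in si-BRG1 cells, 10.0 and 11.2 CPM in si-CBX3 cells and 12.2 and 12.1 CPM in si-FOXA1 cells, against 17.9 and 16.8 CPM in si-control cells. Every knockdown library lay below every si-control library, and for TAP2 the si-CBX3 libraries were the lowest, not the si-FOXA1 libraries. Its log2 fold changes were -0.39 ± 0.08 in si-BRG1 cells (edgeR adjusted p = 0.0014), -0.61 ± 0.08 in si-CBX3 cells (adjusted p = 1.42e-05) and -0.38 ± 0.08 in si-FOXA1 cells (adjusted p = 0.000595) at 6 h. At 0 h they were -0.26 ± 0.08 in si-BRG1 cells (edgeR adjusted p = 0.0269), -0.71 ± 0.08 in si-CBX3 cells (adjusted p = 1.86e-06) and -0.51 ± 0.08 in si-FOXA1 cells (adjusted p = 2.86e-05). In si-BRG1 cells at 0 h the call was lost without si-BRG1 replicate 1 (-0.25), si-BRG1 replicate 2 (-0.26), si-control replicate 1 (-0.21) or the filter on low counts (-0.28), and in si-FOXA1 cells at 6 h the value was -0.24, still called, with upper-quartile scaling.

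TAPBP encodes tapasin, which bridges TAP and the heavy chain and selects peptides that bind tightly. At 6 h it had 71.8 and 92.7 CPM in si-BRG1 cells, 229.9 and 243 CPM in si-CBX3 cells and 155 and 174 CPM in si-FOXA1 cells, against 78.4 and 68.0 CPM in si-control cells. At 0 h TAPBP had 118 and 125 CPM in si-BRG1 cells, 289.8 and 297 CPM in si-CBX3 cells and 233 and 234 CPM in si-FOXA1 cells, against 103 and 85.1 CPM in si-control cells. All 8 libraries of si-CBX3 and si-FOXA1 cells lay above the si-control and si-BRG1 libraries. The rise against si-control was 3.23-fold at 6 h and 3.11-fold at 0 h in si-CBX3 cells, and 2.24-fold and 2.48-fold in si-FOXA1 cells. On the log2 scale the changes were 0.17 ± 0.11 in si-BRG1 cells (edgeR adjusted p = 0.252), 1.69 ± 0.11 in si-CBX3 cells (adjusted p = 4.92e-09) and 1.17 ± 0.11 in si-FOXA1 cells (adjusted p = 6.01e-08) at 6 h. At 0 h they were 0.37 ± 0.11 in si-BRG1 cells (edgeR adjusted p = 0.0188), 1.64 ± 0.11 in si-CBX3 cells (adjusted p = 4.49e-09) and 1.31 ± 0.11 in si-FOXA1 cells (adjusted p = 1.59e-08). The 4 calls in si-CBX3 and si-FOXA1 cells held without any single library (log2 1.07 to 1.80). The si-BRG1 0 h call was lost without si-BRG1 replicate 1 (0.41), si-BRG1 replicate 2 (0.33) or si-control replicate 2 (0.23), and at 6 h TAPBP was called higher in si-BRG1 cells without si-BRG1 replicate 1 (0.34). The 2 siRNAs with the large rise are those whose files were counted with 1 thread. The thread number only marks these sets of files, and any difference between the sets cannot be told apart from the knockdowns for TAPBP.

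NLRC5, an NLR family protein that switches on class I genes, had the lowest level of the 9 and the largest standard errors. At 6 h it had 3.39 and 4.51 CPM in si-BRG1 cells, 7.07 and 6.03 CPM in si-CBX3 cells and 7.02 and 9.34 CPM in si-FOXA1 cells, against 9.18 and 7.66 CPM in si-control cells. At 0 h NLRC5 had 6.12 and 6.59 CPM in si-BRG1 cells, 6.50 and 6.83 CPM in si-CBX3 cells and 10.1 and 10.2 CPM in si-FOXA1 cells, against 13.0 and 7.96 CPM in si-control cells. The si-BRG1 libraries were the lowest at 6 h, and the si-FOXA1 and si-control libraries overlapped at both times. Log2 fold changes at 6 h were -1.08 ± 0.20 in si-BRG1 cells (edgeR adjusted p = 0.000508), -0.36 ± 0.20 in si-CBX3 cells (adjusted p = 0.14) and -0.04 ± 0.19 in si-FOXA1 cells (adjusted p = 0.857). At 0 h they were -0.73 ± 0.19 in si-BRG1 cells (edgeR adjusted p = 0.00852), -0.66 ± 0.19 in si-CBX3 cells (adjusted p = 0.00726) and -0.05 ± 0.18 in si-FOXA1 cells (adjusted p = 0.807). The 0 h calls were lost without si-control replicate 1, at -0.33 in si-BRG1 and -0.26 in si-CBX3 cells, and in si-BRG1 cells also without si-BRG1 replicate 1 (-0.67). Without si-control replicate 2 the si-CBX3 value was -0.99. For si-FOXA1 the 95% interval of the log2 difference ran from -0.44 to 0.37 at 6 h and from -0.44 to 0.34 at 0 h.

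**Figure D2:**
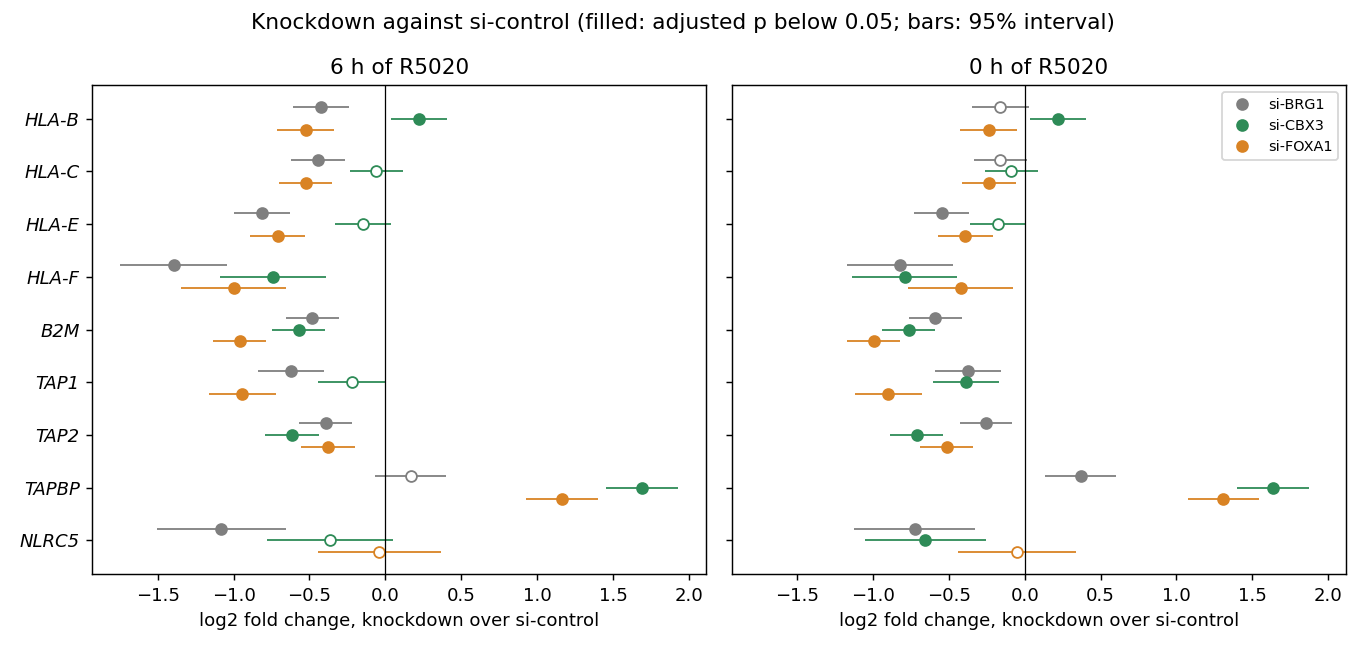
Log2 fold change of each gene in knockdown over si-control cells (horizontal axis, 0 marked) at 6 h (left) and 0 h (right) of R5020, from edgeR; points are estimates from 2 libraries per group, bars 95% intervals, and filled points have an adjusted p below 0.05. HLA-F in si-BRG1 cells at 6 h reaches -1.39 and TAPBP in si-CBX3 cells 1.69.

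Set against each other before hormone, si-FOXA1 and si-CBX3 cells, whose files were both counted with 1 thread, differed in 7 of the 9 genes, 5 lower and 2 higher in si-FOXA1 cells (64.8% of all genes tested were called, 30.6% lower and 34.2% higher). HLA-B (-0.46 ± 0.09, edgeR adjusted p = 0.00023) and TAP1 (-0.51 ± 0.10, adjusted p = 0.000372) were the most reduced in si-FOXA1 cells. TAPBP (-0.33 ± 0.11), B2M (-0.23 ± 0.08) and HLA-E (-0.21 ± 0.09) were lower by less, and NLRC5 (0.60 ± 0.19) and TAP2 (0.20 ± 0.08) were higher. The calls of HLA-B and TAP1 held without any single library, whereas HLA-E and TAPBP were lost without si-CBX3 replicate 2 (-0.15 and -0.31), si-FOXA1 replicate 1 (-0.19 and -0.33) or si-FOXA1 replicate 2 (-0.24 and -0.33). B2M was lost without si-CBX3 replicate 2 (-0.18) or si-FOXA1 replicate 2 (-0.19), TAP2 without si-CBX3 replicate 1 (0.12), si-FOXA1 replicate 1 (0.19) or si-FOXA1 replicate 2 (0.21), and NLRC5 without si-CBX3 replicate 1 (0.57). HLA-F was called higher without si-CBX3 replicate 2 (0.55), and also with DESeq2 (0.37), upper-quartile scaling (0.47), no filter on low counts (0.34) or the 2 groups fitted alone (0.34). The total of 7 was 4 without si-FOXA1 replicate 1 and 3 without si-FOXA1 replicate 2. With upper-quartile scaling, which moved the median of all genes by 0.10 in this comparison, HLA-E (-0.11), B2M (-0.13) and TAPBP (-0.23) were not called and TAP2 was 0.30, and TAP2 was not called with DESeq2 (0.20).

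R5020 for 6 h came with a call in 1 to 3 of the 9 genes under each siRNA when all 16 libraries were fitted together. That number depended on the fit: with only their own 4 libraries fitted, 6 were called in si-CBX3 cells, where HLA-B (0.13), HLA-C (0.145), HLA-E (0.16) and B2M (0.12) were called higher as well. Without the filter on low counts 3 were called in si-control cells. In the joint fit TAPBP was the gene that fell under all 4 siRNAs, and no heavy chain, B2M or TAP2 was called lower. Against 0 h, 3 of the 9 genes were called lower in si-BRG1 cells (35.7% of all genes tested were called, 17.1% lower), 1 higher and 1 lower in si-CBX3 cells (41.0% called, 20.4% higher and 20.5% lower), 1 lower in si-FOXA1 cells (38.8% called, 19.6% lower) and 1 lower in si-control cells (37.6% called, 18.1% lower). TAPBP had 71.8 and 92.7 CPM at 6 h against 118 and 125 CPM at 0 h in si-BRG1 cells, and 229.9 and 243 against 289.8 and 297 CPM in si-CBX3 cells. In si-FOXA1 cells TAPBP had 155 and 174 CPM at 6 h against 233 and 234 CPM at 0 h, and in si-control cells 78.4 and 68.0 against 103 and 85.1 CPM. Under each siRNA both 6 h libraries were below both 0 h libraries. The log2 fold changes were -0.56 ± 0.11 in si-BRG1 cells (edgeR adjusted p = 0.000612), -0.31 ± 0.11 in si-CBX3 cells (adjusted p = 0.0305), -0.51 ± 0.11 in si-FOXA1 cells (adjusted p = 0.00139) and -0.36 ± 0.11 in si-control cells (adjusted p = 0.0152). The si-BRG1 and si-FOXA1 calls held without any single library. The si-CBX3 call was lost without any of its 4 libraries (-0.35 to -0.24), and the si-control call without 0 h replicate 1 (-0.22) or 6 h replicate 2 (-0.27).

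In si-BRG1 cells NLRC5 and TAP1 were also lower after hormone. NLRC5 had 3.39 and 4.51 CPM at 6 h against 6.12 and 6.59 CPM at 0 h (-0.68 ± 0.20, edgeR adjusted p = 0.0144), and TAP1 had 114 and 91.0 against 128 and 128 CPM (-0.32 ± 0.10, adjusted p = 0.0222). TAP1 was not called without either 0 h library (-0.32 each) or 6 h replicate 2 (-0.17), nor with the 2 groups fitted alone (-0.31), and was -0.49 without 6 h replicate 1. NLRC5 was not called without 0 h replicate 2 (-0.62) or 6 h replicate 1 (-0.49). Without 6 h replicate 1, HLA-B (-0.25), HLA-C (-0.31) and HLA-E (-0.28) were called lower as well. HLA-F was the gene called higher, in si-CBX3 cells, with 18.3 and 17.7 CPM at 6 h against 11.8 and 14.9 CPM at 0 h (0.43 ± 0.17, edgeR adjusted p = 0.0495). That call was lost without 0 h replicate 1 (0.27), 6 h replicate 1 (0.43) or 6 h replicate 2 (0.46), and with upper-quartile scaling (0.35). In si-control cells HLA-F had 31.2 and 28.9 CPM at 6 h against 28.7 and 17.6 CPM at 0 h (0.38 ± 0.16, edgeR adjusted p = 0.077), and without the first 0 h library its log2 fold change was 0.78 and called, as was that of HLA-B at 0.27. Without the second 0 h library, NLRC5 was called lower in si-control cells (-0.63).

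**Figure D3:**
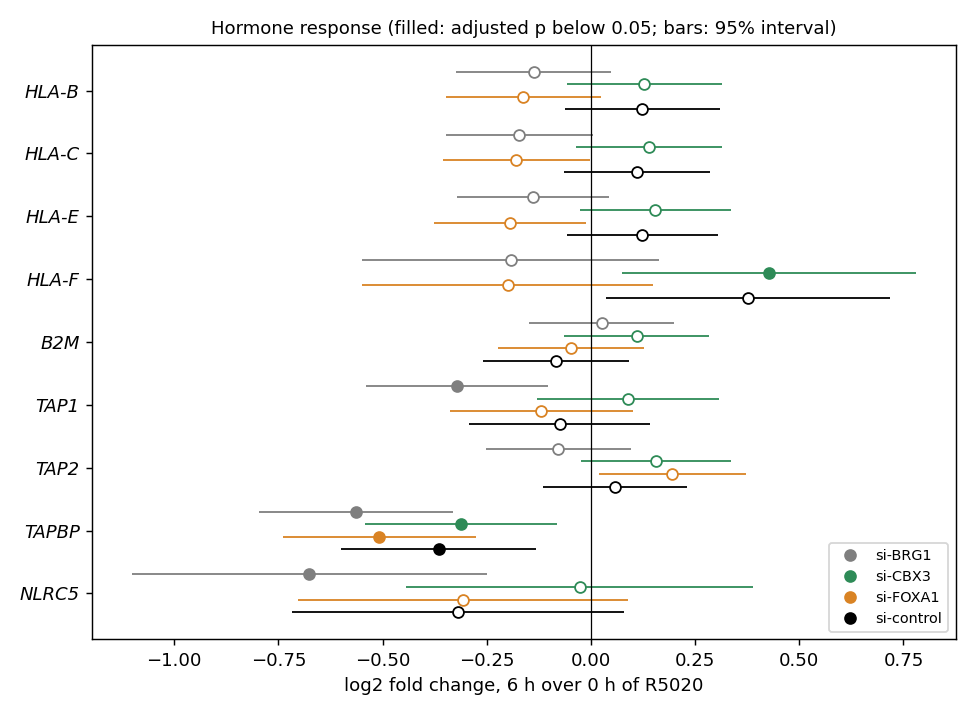
Log2 fold change of each gene at 6 h over 0 h of R5020 (horizontal axis, 0 marked) under each siRNA, from edgeR with 2 libraries per group; bars are 95% intervals and filled points have an adjusted p below 0.05. TAPBP is left of 0 and filled under all 4 siRNAs, between -0.56 and -0.31.

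Of the 16 hormone responses of heavy chains, 1 was called, that of HLA-F in si-CBX3 cells. Tested as differences of responses from si-control, 0 of the 9 genes were called by edgeR for si-BRG1 (5.22% of all genes called), si-CBX3 (8.99%) or si-FOXA1 (28.7%), with 3, 0 and 4 genes at an unadjusted p below 0.05. DESeq2 also called 0 in each, and without the filter on low counts edgeR called 1 for si-BRG1 and 3 for si-FOXA1. For HLA-E the difference was -0.26 ± 0.12 for si-BRG1 (edgeR adjusted p = 0.226), 0.03 ± 0.12 for si-CBX3 (adjusted p = 0.923) and -0.32 ± 0.12 for si-FOXA1 (adjusted p = 0.0607). For HLA-F it was -0.57 ± 0.23, 0.05 ± 0.23 and -0.58 ± 0.23 (edgeR adjusted p = 0.171, 0.933 and 0.072). Without si-BRG1 6 h replicate 1, 4 of the 9 genes were called for si-BRG1, and without si-control 0 h replicate 1, 1 was called for si-BRG1 and 4 for si-FOXA1. Set against the si-CBX3 response, a comparison added after the data had been seen, 1 of the 9 genes was called for si-FOXA1 (27.8% of all genes called) and 0 for si-BRG1 (6.29%), with 4 and 6 genes at an unadjusted p below 0.05. The called gene was HLA-E, whose response in si-FOXA1 cells was -0.35 ± 0.12 relative to that in si-CBX3 cells (edgeR adjusted p = 0.0424). The number for si-FOXA1 was 4 with only the groups compared in the fit or without the filter on low counts, and 0 with upper-quartile scaling. The HLA-E call was lost without any of the 8 libraries other than si-CBX3 0 h replicate 2 (-0.39 to -0.29). DESeq2 called 3 for si-FOXA1, HLA-C, HLA-E and HLA-F, and 0 for si-BRG1, where 5 were called without si-BRG1 6 h replicate 1. These comparisons of responses share si-CBX3 or si-control libraries.

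The partners that supply and load peptides were more often called lower than higher. Of 14 such genes, 5 were called lower and 3 higher at 6 h and 5 lower and 1 higher at 0 h in si-BRG1 cells. In si-CBX3 cells 10 were lower and 3 higher at 6 h and 9 lower and 2 higher at 0 h, and in si-FOXA1 cells 10 lower and 1 higher at 6 h and 9 lower and 1 higher at 0 h. Over all genes 37.3%, 49.2% and 74.6% were called at 6 h and 28.5%, 54.1% and 73.5% at 0 h, so the 11 and 10 of 14 called in si-FOXA1 cells are near the share of all genes, whereas 34.5% and 33.5% of all genes were lower there. The inducible proteasome subunits PSMB8, PSMB9 and PSMB10, which replace the constitutive catalytic subunits under interferon, were lower in all 6 comparisons. PSMB9, whose gene lies head to head with TAP1, had 7.02 and 5.79 CPM at 6 h in si-BRG1 cells, 6.19 and 5.38 in si-CBX3 cells and 4.87 and 5.78 in si-FOXA1 cells, against 13.2 and 11.6 in si-control cells. All 6 knockdown libraries were below both si-control libraries. Its log2 fold changes were -0.96, -1.10 and -1.22 (edgeR adjusted p = 0.000308, 5.31e-05 and 6.17e-06). Of the constitutive subunits PSMB5, PSMB6 and PSMB7, 3 of 3 were called lower at 6 h and 1 of 3 at 0 h in si-BRG1 cells (median log2 fold change -0.33 and -0.24), and 2 of 3 and 3 of 3 in si-CBX3 cells (-0.19 and -0.25). In si-FOXA1 cells 3 of 3 were lower at each time, with a median of -1.39 at 6 h and -1.09 at 0 h. ERAP2, an aminopeptidase that trims peptides, was lower in si-CBX3 cells (-1.18 at 6 h, edgeR adjusted p = 1.28e-06). TAPBPL, a peptide editor related to tapasin, had -1.13 in si-CBX3 cells at 6 h (edgeR adjusted p = 0.000941) while TAPBP itself was higher there. Calreticulin (CALR), a chaperone of the loading complex, was higher in si-BRG1 (0.35 at 6 h, edgeR adjusted p = 0.00206) and si-CBX3 cells (0.64, adjusted p = 3.78e-06) and lower in si-FOXA1 cells (-0.18, adjusted p = 0.0408). The median log2 fold change of the 14 was -0.17, -0.45 and -0.58 at 6 h and -0.18, -0.64 and -0.62 at 0 h in si-BRG1, si-CBX3 and si-FOXA1 cells, beside medians of all genes between 0.02 and 0.12. These lists, like the 9 genes, were chosen with earlier results of these data known.

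Among known regulators of class I genes (23 of 24 listed passed the filter), calls went both ways: 9 lower and 6 higher in si-BRG1, 5 lower and 5 higher in si-CBX3 and 6 lower and 11 higher in si-FOXA1 cells at 6 h, and 6 lower and 4 higher, 6 lower and 6 higher and 9 lower and 7 higher at 0 h. In si-CBX3 and si-FOXA1 cells these numbers are at or near those that the shares of all genes called would give (49.2% and 74.6% at 6 h, 54.1% and 73.5% at 0 h), against 37.3% and 28.5% in si-BRG1 cells. IRF1, a direct activator of TAP1 and the heavy chains, was lower at 0 h in si-BRG1 (-0.76, edgeR adjusted p = 0.000319) and si-CBX3 cells (-1.06, adjusted p = 3.09e-06), and had 0.14 in si-FOXA1 cells (adjusted p = 0.32). At 6 h IRF1 had 6.34 and 7.23 CPM in si-BRG1 cells, 6.21 and 5.40 in si-CBX3 cells and 27.1 and 30.3 in si-FOXA1 cells, against 15.0 and 15.4 in si-control cells. It was lower there in si-BRG1 (-1.16, edgeR adjusted p = 5.47e-06) and si-CBX3 cells (-1.39, adjusted p = 3.55e-07) and higher in si-FOXA1 cells (0.91, adjusted p = 3.94e-06), in which 7 of the 9 class I genes were lower. STAT3, a transcription factor activated by cytokines, was higher in all 3 at 0 h (0.52, 0.52 and 0.76, edgeR adjusted p = 1.58e-05, 2.58e-06 and 1.25e-08). Of the interferon ligands and receptors (12 of 16 passed the filter), the receptor subunits IFNGR1 (-0.47, -0.91 and -1.07) and IFNLR1 (-0.75, -1.12 and -0.81) were lower and IFNGR2 (0.90, 1.15 and 0.29) higher in all 3 at 0 h, each with an edgeR adjusted p of at most 0.00106. In that list 5 lower and 2 higher were called at 0 h in si-BRG1, 4 lower and 2 higher in si-CBX3 and 6 lower and 3 higher in si-FOXA1 cells. Of all genes tested, 28.5%, 54.1% and 73.5% were called at 0 h with both directions together. The numbers in si-CBX3 and si-FOXA1 cells are near those shares.

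Interferon-stimulated genes outside antigen presentation, many of which are known to carry interferon-response elements, were mostly lower than in si-control cells as well. Of 36 such genes, 36 were called lower in si-BRG1 cells at 6 h and 36 at 0 h, 32 and 34 in si-CBX3 cells, and 35 and 34 in si-FOXA1 cells, with 0 higher. Of all genes tested, 17.8% and 13.4% were called lower in si-BRG1, 24.4% and 26.0% in si-CBX3 and 34.5% and 33.5% in si-FOXA1 cells. Their median log2 fold change was -1.73, -1.30 and -2.77 at 6 h and -1.61, -1.54 and -2.65 at 0 h, larger in size than that of the 9 class I genes in each comparison. The median CPM of the list in the lower and the higher library of each group was 10.8 and 11.2 in si-BRG1, 16.5 and 16.6 in si-CBX3, 5.80 and 6.72 in si-FOXA1 and 44.8 and 48.5 in si-control cells at 6 h, as the plot beside the class I level shows. At 0 h it was 18.6 and 21.9 in si-BRG1, 20.1 and 26.4 in si-CBX3, 7.79 and 10.3 in si-FOXA1 and 46.8 and 96.7 CPM in si-control cells. Without the first si-control 0 h library, 30, 33 and 34 of the 36 were called lower at 0 h. Over the 4 hormone responses, 19 were lower and 2 higher in si-BRG1, 8 and 3 in si-CBX3, 10 and 2 in si-FOXA1 and 15 and 2 in si-control cells. Of all genes tested, 35.7%, 41.0%, 38.8% and 37.6% were called in these responses, 17.1%, 20.5%, 19.6% and 18.1% lower. In si-CBX3 and si-FOXA1 cells the list was thus called less often than all genes with both directions together. Counted as lower alone, it was not called less often than all genes there. The si-control count was 8 without its 0 h replicate 1 and 24 without its 0 h replicate 2, the si-CBX3 count 5 without its 0 h replicate 2, and the si-FOXA1 count 5 without its 0 h replicate 1 or its 6 h replicate 2. Whether interferon signalling has a part in the class I values was not tested.

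**Figure D4:**
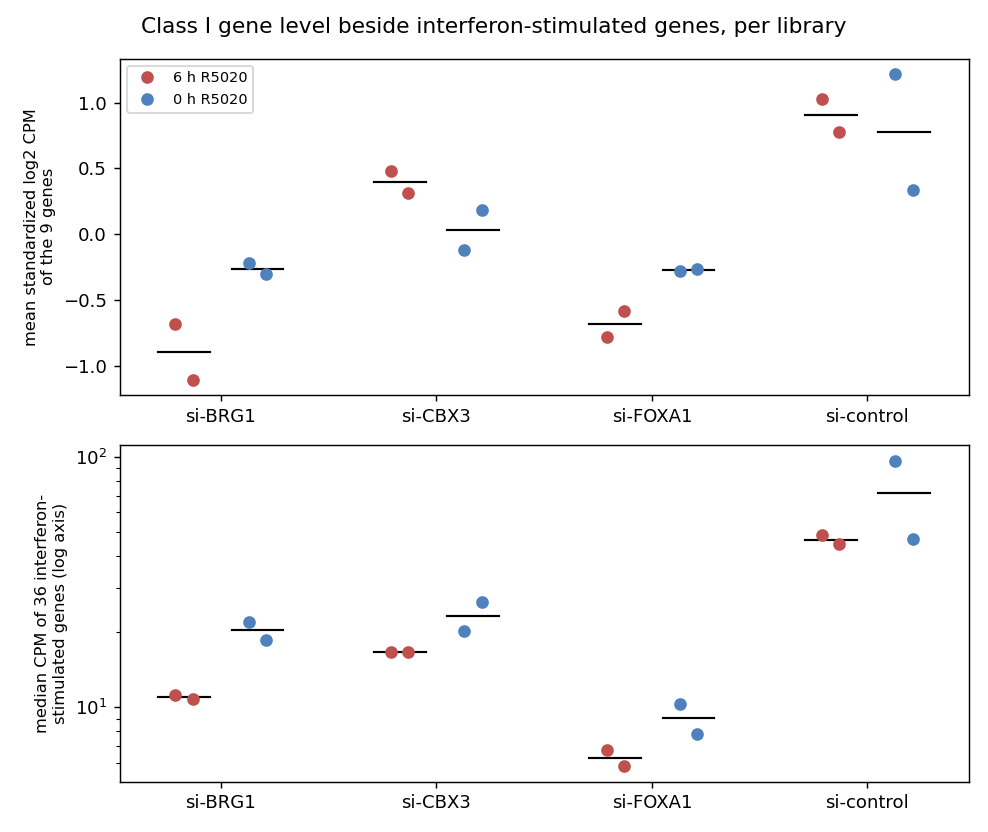
Top, mean of the 9 genes' standardized log2 CPM in each siRNA library; bottom, median CPM of 36 interferon-stimulated genes on a log axis; siRNA on the horizontal axis, 6 h of R5020 in red and 0 h in blue, points are libraries and lines means of 2. The first si-control 0 h library is the highest of the 16 in both panels, at 96.7 CPM below, and si-FOXA1 libraries are the lowest below, at 5.80 to 10.3 CPM.

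MHC class II genes, whose own transactivator is CIITA, had a median below 1 CPM in every library, and 7 of 9 passed the filter. HLA-DMA (27.8 to 54.9 CPM) and CD74 (12.5 to 23.9 CPM) stood well above that median. Of these, 3 were lower and 1 higher at each time in si-BRG1 cells, 4 lower and 0 higher at each time in si-CBX3 cells, and in si-FOXA1 cells 3 lower and 1 higher at 6 h and 1 and 1 at 0 h. HLA-DRA, the alpha chain of HLA-DR, was the one lower in all 6 (-1.34, -1.82 and -1.61 at 6 h, edgeR adjusted p = 0.000227, 1.29e-05 and 1e-05). Other class I-like genes (13 of 14 passed) were lower in 5 and 4 cases in si-BRG1 cells at 6 h and 0 h, 7 and 7 in si-CBX3 cells and 9 and 9 in si-FOXA1 cells, and higher in 1 and 2, 3 and 3, and 1 and 2. Beside these, 37.3% and 28.5% of all genes were called in si-BRG1, 49.2% and 54.1% in si-CBX3 and 74.6% and 73.5% in si-FOXA1 cells, the last near the share of class I-like genes called at 6 h. MICB, a stress ligand of the receptor NKG2D, had log2 fold changes of -0.41, -1.39 and -1.27 at 0 h (edgeR adjusted p = 0.000571, 3.49e-10 and 1.72e-10). AZGP1, a soluble class I-like protein of breast epithelium, was lower in all 3 (-0.73, -0.56 and -1.83, edgeR adjusted p = 1.36e-06, 2.3e-06 and 8.53e-13). FCGRT, the heavy chain of the neonatal Fc receptor that also pairs with B2M, was higher in all 3 (0.55, 0.93 and 0.68, edgeR adjusted p = 0.00723, 2.68e-05 and 0.000325).

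Across the 16 libraries the 9 genes did not move as 1 block. Pearson's r between log2 levels, given as a description over libraries that share the same groups, was 0.93 for HLA-C with HLA-E, 0.90 for HLA-C with TAP1, 0.88 for HLA-B with HLA-C and 0.87 for B2M with TAP1. TAP2 had -0.86 with TAPBP and -0.15 with HLA-B. Against the mean standardized level of all 9, r was 0.96 for HLA-E, 0.93 for HLA-C, 0.87 for HLA-F, 0.87 for TAP1, 0.76 for HLA-B, 0.73 for B2M, 0.55 for NLRC5, 0.44 for TAP2 and -0.14 for TAPBP. TAPBP had -0.71 with B2M, and it was the gene of the 9 with a negative r to the mean. Of 9912 other genes with a mean log2 CPM of at least 3, the 5 with the highest r to that mean were IFITM1 (0.94), LGALS3BP (0.93), IFIT5 (0.92), DPP3 (0.90) and CUEDC2 (0.90). IFITM1, an antiviral membrane protein, had 5.20 and 4.49 CPM in si-BRG1, 13.9 and 13.3 in si-CBX3, 2.98 and 3.18 in si-FOXA1 and 37.6 and 36.5 in si-control cells at 6 h. At 0 h it had 8.48 and 8.49, 7.29 and 14.9, 5.80 and 4.06, and 54.3 and 20.1 CPM.

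Without siRNA, with 1 library per time and so no replicate check, HLA-B, B2M, HLA-C and HLA-E were again the 4 highest and NLRC5 the lowest, and hormone left most of the 9 genes close to their 0 h value. HLA-B had 323 RPKM at 6 h against 215 RPKM at 0 h, and HLA-C had 114 RPKM at 6 h against 74.2 RPKM at 0 h. These were the largest differences, with log2 ratios of 0.58 and 0.62 on the log2(RPKM + 1) scale. B2M had 159 RPKM at 6 h against 159 RPKM at 0 h, a log2 ratio of 0.004. HLA-E had 25.8 RPKM at 6 h against 28.5 RPKM at 0 h and HLA-F 11.5 RPKM at 6 h against 9.75 RPKM at 0 h. Among the loading genes TAP1 had 10.4 RPKM at 6 h against 13.6 RPKM at 0 h, TAP2 8.19 RPKM at 6 h against 9.06 RPKM at 0 h and TAPBP 9.58 RPKM at 6 h against 10.4 RPKM at 0 h, log2 ratios of -0.35, -0.13 and -0.11. NLRC5 had 1.22 RPKM at 6 h against 1.15 RPKM at 0 h. Of the 9 genes 5 were higher and 4 lower at 6 h, and none passed 1 in log2 size, as 5.06% of the 31876 genes above 0 did. TAPBP was lower at 6 h here as in the 4 siRNA conditions, with no test. Gene values are sums over transcripts whose split was unstable: 1 HLA-F transcript was listed at 0 RPKM at 6 h and 5.47 RPKM at 0 h, and 1 TAP1 transcript at 0 RPKM at 6 h and 5.99 RPKM at 0 h. Interferon-stimulated genes had a median of 0.663 RPKM at 6 h and 0.630 RPKM at 0 h over the list of 36. In si-control cells that median was 44.8 and 48.5 CPM at 6 h and 46.8 and 96.7 CPM at 0 h. For luminal markers it was 55.8 and 40.9 RPKM without siRNA, and 372 to 404 and 562 to 593 CPM in si-control cells. CPM are not divided by gene length, and whether si-control cells depart from cells without siRNA in the interferon-stimulated genes was not tested. Beside the si-control means at 6 h and 0 h, the 9 genes did not all lie on 1 side. HLA-E (102.5 and 94.0 FPKM in si-control cells), B2M (252 and 267 FPKM) and TAP1 (33.3 and 35.1 FPKM) were lower without siRNA. So were TAPBP (14.5 and 18.6 FPKM) and, by less, HLA-C (116.6 and 108.1 FPKM). TAP2 (2.83 and 2.72 FPKM), HLA-F (6.41 and 4.93 FPKM) and NLRC5 (0.680 and 0.846 FPKM) were higher. HLA-B (250.5 and 229.8 FPKM) was higher at 6 h and lower at 0 h. Of the TAP2 value without siRNA, 56.4% at 6 h and 58.0% at 0 h came from 1 transcript of 274 bases. RPKM without siRNA and FPKM of the siRNA libraries were made in different ways, so their levels are not directly comparable.

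**Figure D5:**
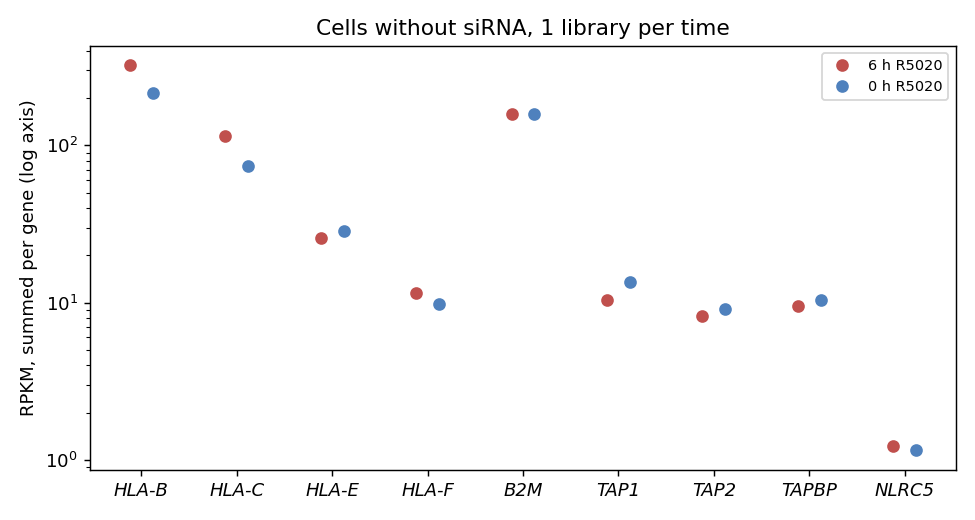
RPKM per gene, summed over transcripts (vertical log axis), of the 9 genes in T47D cells without siRNA at 6 h (red, left) and 0 h (blue, right) of R5020; each point is 1 library. HLA-B is the highest at 323 and 215 RPKM and NLRC5 the lowest at 1.22 and 1.15 RPKM.

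BRG1 itself was seen at 1 of the 9 genes. Within 5 kb of a gene's 5′ end, the 30 min list held a peak for TAP1 and the 0 min list for none of the 9, against 4.82% and 1.05% of all 57820 genes. Of those genes 32.5% passed the filter on low counts, as all 9 did, and the share among genes that passed was not computed. The TAP1 peak, chr6:32820333-32822436 in hg19, spans the 5′ end of the gene model (32821755, minus strand) and carries the authors' score of 57.5, which is below the middle of that list, since it is not among the upper 3091 of 6180 peaks. The TAP1 promoter window printed above is in GRCh38, and its position was not converted. The next nearest 30 min peaks lay 13.8 kb from the 5′ end of TAP2 (the TAP1 peak itself), 20.9 kb from HLA-C, 47.9 kb from B2M and 63.4 kb from HLA-B, and those of HLA-E, HLA-F, TAPBP and NLRC5 at 309 kb and beyond. TAP1 RNA at 6 h of R5020 differed from 0 h by -0.32 on the log2 scale in si-BRG1 cells, 0.09 in si-CBX3, -0.12 in si-FOXA1 and -0.07 in si-control cells, of which the first was called. That value was not called with its own groups fitted alone. The TAP1 response of si-BRG1 minus that of si-control was -0.25 ± 0.15 and not called (edgeR adjusted p = 0.355). A link of the peak to RNA of TAP1, or of PSMB9, which lies head to head with it, was not tested. Each list comes from 1 library, so no spread can be given.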

How the data were processed

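RNA-seq libraries were trimmed with Trimmomatic, aligned with STAR and counted with featureCounts, per the submitters' processing notes. Per the file headers, featureCounts 1.4.6-p2 counted fragments over GENCODE 19 exons on hg19, and the deposited counts are whole fragments per gene. All 37 mitochondrial genes are listed at 0 counts. For the 2 libraries without siRNA the authors deposited RPKM and estimated counts per transcript (tool not given in the sources). The authors' BRG1 peak lists (Bowtie 1.0.0 and HOMER, per the submitters' processing notes) give a score per peak, each from 1 library. The kit is stranded, per the labels, and the counting command used the reverse-stranded setting, per the file headers.

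Counts of all 16 siRNA libraries were fitted together (edgeR 4.0.16 in R 4.3.3; TMM scaling, filterByExpr, 8 group means, quasi-likelihood test, two-sided), with Benjamini-Hochberg adjustment over the 18806 genes that passed. DESeq2 1.42.0 was an alternative. The fits were tested on simulated data. FPKM divide CPM by exonic length. RPKM were summed over the transcripts of each symbol, with a pseudocount of 1. Peaks were assigned within 5 kb of a gene's 5′ end. Replicates of each group differed by more than sampling noise, with a chi-square per degree of freedom of 4.10 or more. Intervals cover 95%. The members and lists were chosen with earlier results of these data known. Named genes are the 9 members, the siRNA targets, any peptide partner, per list up to 4 called genes of lowest p in the commoner direction and up to 2 in the other, and the 5 genes of most alike pattern. One gene of the regulator list is not reported here.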

Additional observations from a re-analysis of the deposited data

Results flagged for a closer look

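For HLA-E the change after 6 h of R5020 in si-FOXA1 cells was -0.35 ± 0.12 on the log2 scale relative to the change in si-CBX3 cells (edgeR adjusted p = 0.0424). It was the 1 gene of the 9 called by this test of the difference, in which 27.8% of all genes were called. With upper-quartile scaling HLA-E was not called. HLA-E had 186 and 187 CPM at 6 h against 209 and 217 CPM at 0 h in si-FOXA1 cells, and 283 and 268 CPM at 6 h against 237 and 258 CPM at 0 h in si-CBX3 cells. All libraries were lower at 6 h in si-FOXA1 cells and higher in si-CBX3 cells. The comparison was added after the data had been seen, and the call was lost when any 1 of 7 of the 8 libraries was left out (-0.39 to -0.29), holding without si-CBX3 0 h replicate 2 (-0.41).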

How the results depend on the processing

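No called log2 fold change of the 9 genes changed sign under any setting run. With 1 library left out, 62 calls of single genes were lost, 25 were gained and 669 single-gene results kept their side of the threshold. Under the other settings 22 were lost, 38 gained and 822 kept. With 1 library left out, the number of the 9 genes called ran from 3 to 7 for si-BRG1 and 5 to 8 for si-FOXA1 against si-control at 0 h, and from 3 to 5 for si-FOXA1 against si-CBX3 at 0 h. For 6 h against 0 h it ran from 1 to 5 in si-BRG1, 0 to 1 in si-CBX3 and 0 to 2 in si-control cells. For responses set against si-control it ran from 0 to 4 for si-BRG1 and 0 to 4 for si-FOXA1, and against si-CBX3 from 0 to 2 for si-FOXA1 and 0 to 5 for si-BRG1.

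With only the groups compared in the fit, 8 genes were called for si-CBX3 against si-control at 6 h, 6 for si-CBX3 6 h against 0 h and 4 for the si-FOXA1 response against that of si-CBX3. Upper-quartile scaling gave 5 for si-FOXA1 against si-control at 0 h, 1 for si-CBX3 6 h against 0 h and 0 for the si-FOXA1 response against that of si-CBX3. It raised the median of all genes by 0.14 for si-FOXA1 against si-control at 6 h, and in si-control cells after hormone it gave 2966 genes higher and 4374 lower, where TMM gave 3665 and 3405. Without the filter on low counts 3 were called in si-control cells at 6 h against 0 h, 1 and 3 for the si-BRG1 and si-FOXA1 responses against si-control, and 4 and 3 for the si-FOXA1 and si-BRG1 responses against si-CBX3. DESeq2 called 3 for the si-FOXA1 response against that of si-CBX3. Over all genes, the number called for si-BRG1 against si-control at 6 h was 3742 with only those groups fitted and 7024 with all, for si-BRG1 6 h against 0 h 4249 and 6706, and for the si-BRG1 response against si-control 61 and 981, or 1544 with DESeq2. For the si-BRG1 response against si-CBX3 it was 684 with only those groups, 1782 without the filter and 1182 otherwise. Within 20 kb 2 genes had a 30 min BRG1 peak, and 0 within 5 kb among the upper 3091 peaks by score. The causes were not tested.

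Same-numbered libraries showed little shared deviation, with correlations of -0.06 to 0.12 over 28 pairs of groups, 1 of them above 0.1. The labels do not say whether replicate numbers mark a shared culture or day, so whether the samples were paired is unknown. With the replicate block 1 gene was called for si-CBX3 6 h against 0 h and 2 for the si-FOXA1 response against that of si-CBX3, and the block moved no other count of the 9 genes by more than 1.5 times. Depth limits NLRC5 most, with 195 fragments in its lowest library.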
